A study of Mus musculus with 8 samples.

Results

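Immediate early genes are the genes that a cell transcribes within minutes of a stimulus, before any new protein has to be made, and 10 of them were followed among the 27998 genes of the matrix: Fos, Fosb, Jun, Junb, Egr1, Ier2, Arc, Npas4, Nr4a1 and Atf3. They were listed by name, but earlier results of these data were known when they were chosen. The cells were cortical Ebf2-EGFP+ cells of the transgenic strain Tg(Ebf2-EGFP)FB58Gsat at E15.5, in which the Ebf2 promoter drives EGFP, and all belonged to 1 group with no untreated or unstimulated control. Embryos of more than 1 timed-pregnant mouse were pooled, the cortex was digested with warm papain, and EGFP+ cells were collected by FACS and run on a droplet platform (10x Genomics Chromium). The labels list 8 samples, but a single pooled matrix holds all barcodes and nothing ties a barcode to a sample, so the barcodes were handled as 1 library and no test between samples was run. Intervals are given at 95% and reflect only the error of counting.

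The proteins of these genes act at different steps of the same early response. FOS, FOSB, JUN, JUNB and ATF3 are basic leucine zipper proteins that pair into AP-1 and related dimers and bind DNA, EGR1 is a zinc finger factor, and NR4A1 is an orphan nuclear receptor. NPAS4 is a neuronal factor of the bHLH-PAS family that responds to calcium entry, ARC is a postsynaptic protein that acts on glutamate receptor trafficking, and IER2 is a short-lived nuclear protein. In neurons these genes are induced by synaptic activity, growth factors and stress, through the transcription factors SRF and CREB and the MAP kinases, and enzymatic dissociation of tissue is a known inducer of Fos, Jun, Junb, Egr1, Ier2 and Atf3. All barcodes here went through the same digestion and sort, so transcripts already present in the tissue and transcripts made during dissociation cannot be told apart.

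The matrix held 3000 barcodes with 10718 to 76690 UMIs (unique molecular identifiers, which count captured transcripts) and a median of 15832. All barcodes carried the same suffix and 0 were duplicated. After removal of the 69 barcodes with the highest doublet scores, 2931 remained. A barcode was called Reln-high when at least 5 of every 10000 of its UMIs came from Reln, the gene of the secreted protein Reelin that marks Cajal-Retzius (CR) neurons of layer 1. This gave 472 Reln-high barcodes, while 2441 barcodes formed the other neurons and 18 were left out as progenitor-like cells or as red blood cells. All 9 CR markers were higher in Reln-high barcodes, from 1.98 on the log2 scale for Calb2 to 5.76 for Ndnf. The median depth was 21542 UMIs in Reln-high barcodes and 15272 in the other neurons, and the median mitochondrial share was 2.61% and 2.95%. Because of this difference in depth, shares of barcodes and correlations were taken at equal depth unless full depth is stated. Every barcode was thinned to the same number of UMIs, just under the 10718 of the shallowest barcode, so that none was lost.

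The 10 genes lie on 8 chromosomes of GRCm38. Fos (ENSMUSG00000021250) is at chromosome 12, 85473890 to 85477273 on the plus strand, Jun (ENSMUSG00000052684) at chromosome 4, 95049034 to 95052222 on the minus strand, and Junb (ENSMUSG00000052837) at chromosome 8, 84974484 to 84978718 on the minus strand. Nr4a1 (ENSMUSG00000023034) is at chromosome 15, 101254269 to 101274795 on the plus strand, and Npas4 (ENSMUSG00000045903) at chromosome 19, 4984355 to 4990316 on the minus strand. All 10 are protein-coding. Jun overlaps the antisense gene Junos and Junb overlaps Prdx2 on the opposite strand, and whether the counting used strand is not given in the sources used here. Junos had 43 UMIs, Prdx2 had 1853 UMIs per 1000000, and their correlations with Jun and Junb over barcodes were 0.01 each.

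Since the genes moved together over barcodes, as described below, the 250 bases upstream of their start sites were read from RefSeq promoter windows (GRCm38.p6), which matched 7 of the 10 genes. The windows that overlap no annotated exon are shown for 4 AP-1 or nuclear receptor genes, 5′ to 3′ on the gene's own strand, with capitals on TGACG or its reverse complement CGTCA, the core of the site bound by CREB and ATF proteins. The windows are Fos at chr12:85473640-85473889 (plus strand), Junb at chr8:84978749-84978998 (minus strand), Nr4a1 at chr15:101266596-101266845 (plus strand) and Jun at chr4:95052223-95052472 (minus strand), the last shown for contrast because it holds no such core.
Fos: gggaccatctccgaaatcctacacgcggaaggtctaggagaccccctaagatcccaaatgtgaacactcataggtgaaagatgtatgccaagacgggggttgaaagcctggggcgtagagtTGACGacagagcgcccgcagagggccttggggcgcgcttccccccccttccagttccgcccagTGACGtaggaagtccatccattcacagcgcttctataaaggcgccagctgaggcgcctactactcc
Junb: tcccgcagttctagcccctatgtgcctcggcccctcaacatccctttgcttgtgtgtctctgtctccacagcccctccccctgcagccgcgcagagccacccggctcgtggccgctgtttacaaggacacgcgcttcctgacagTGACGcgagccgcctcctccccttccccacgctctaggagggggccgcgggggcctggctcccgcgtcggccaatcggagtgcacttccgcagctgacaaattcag
Nr4a1: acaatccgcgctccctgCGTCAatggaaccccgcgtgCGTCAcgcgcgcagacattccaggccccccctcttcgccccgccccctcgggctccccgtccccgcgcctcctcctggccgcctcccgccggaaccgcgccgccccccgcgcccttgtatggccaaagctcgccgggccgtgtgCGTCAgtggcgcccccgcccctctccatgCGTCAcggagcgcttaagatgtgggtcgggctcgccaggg
Jun: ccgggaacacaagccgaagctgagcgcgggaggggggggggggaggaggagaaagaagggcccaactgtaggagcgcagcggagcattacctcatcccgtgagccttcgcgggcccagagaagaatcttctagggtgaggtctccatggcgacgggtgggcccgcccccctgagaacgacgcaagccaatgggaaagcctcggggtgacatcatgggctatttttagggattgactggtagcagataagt
The core was present on either strand in 6 of the 7 windows, against 17.8% of 32851 RefSeq windows of the same length. Fos held it at 129 to 125 and at 66 to 62 bases before the start, Junb at 106 to 102, and Nr4a1 4 times, the nearest at 40 to 36. Fosb, Npas4 and Atf3 also held it, but 6, 250 and 7 of the 250 bases of their windows lie in annotated exons. The Nr4a1, Npas4 and Atf3 windows lie within the annotated spans of their genes, so they are upstream only of the RefSeq start site used. The full palindrome TGACGTCA (1.55% of all windows), the AP-1 site TGANTCA (6.75%) and the CArG box bound by SRF (1.47%) had 0 matches in the 7 windows, on either strand. Egr1, Ier2 and Arc had no matching window and bases further upstream than 250 were not read, so sites there are not covered. Only these patterns were searched, so near matches such as TGACATCA in the Jun window were not counted. A match is a run of letters and not a measured site.

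Among the AP-1 genes, Fos was detected in nearly every cell. At equal depth a Reln-high barcode held between 0 and 42 Fos UMIs with a median of 7, and another neuron between 0 and 51 with a median of 5, so the ranges overlapped almost completely. At least 1 Fos UMI was seen in 96.8% of Reln-high barcodes (94.8 to 98.2%) and 92.5% of the others (91.3 to 93.5%). Levels, given as CPM (a gene's share of all UMIs in the group, scaled to 1000000), were 799 in Reln-high barcodes (783 to 815) and 622 in other neurons (614 to 629), a log2 ratio of 0.36 (0.33 to 0.40). Fosb, whose protein takes the place of FOS in AP-1 dimers, followed with 85.9 against 69.6 CPM and a log2 ratio of 0.30 (0.20 to 0.41).

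Jun had a median of 2 UMIs per thinned barcode in both groups and maxima of 40 and 45. Its level was 343 CPM in Reln-high barcodes and 324 in other neurons, a log2 ratio of 0.08 (0.03 to 0.13), but the ratio changed sign under other definitions of the group, to -0.04 with a cut of 10 Reln UMIs per 10000 and to -0.24 when the CR-like cluster took the place of the Reln cut. No direction is therefore given for Jun. Junb went the other way, at 203 against 226 CPM, a log2 ratio of -0.16 (-0.22 to -0.09). Atf3, a stress-responsive member of the ATF family, was rare, with 40 UMIs in Reln-high barcodes and 92 in the others, or 3.30 and 2.18 CPM, and its interval nearly reached 0 (log2 ratio of 0.60, 0.02 to 1.15).

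Egr1 was detected in 26.5% of thinned Reln-high barcodes (22.6 to 30.7%) and 19.3% of the others (17.7 to 20.9%). It had 46.8 and 33.1 CPM, a log2 ratio of 0.50 (0.36 to 0.64), which turned to -0.46 when only barcodes with Y-linked and without Xist UMIs were kept. Nr4a1 and Npas4 were the lower genes of the Reln-high barcodes. Nr4a1 was found in 27.3% of them (23.4 to 31.6%) against 45.7% of other neurons (43.7 to 47.7%), and its level was 46.7 against 87.9 CPM, a log2 ratio of -0.91 (-1.04 to -0.78). For Npas4 the shares were 33.7% (29.4 to 38.1%) and 48.7% (46.7 to 50.7%), and the levels 59.6 and 89.9 CPM, a log2 ratio of -0.59 (-0.71 to -0.48). Under all alternatives run, the ratio stayed between -1.43 and -0.82 for Nr4a1 and between -1.09 and -0.57 for Npas4. Ier2 did not differ by more than its counting error, with 117 and 121 CPM and a log2 ratio of -0.05 (-0.14 to 0.04).

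Arc was seen in few barcodes. It had 11 UMIs in Reln-high barcodes and 138 in the others, or 0.91 and 3.27 CPM, and a log2 ratio of -1.85 (-2.89 to -0.97). It was seen in 0.64% of thinned Reln-high barcodes (0.13 to 1.85%) and 1.93% of other neurons (1.42 to 2.55%). Arc was the only one of the 10 genes at least 2-fold different between the groups, beside 12.9% of the 11247 genes with at least 100 UMIs, 7.5% of them higher and 5.42% lower in Reln-high barcodes. Of the 10 intervals, 5 lay above 0, 4 below and 1 held 0, and the median log2 ratio was 0.01 for the 10 genes and 0.12 for all genes tested. The share of all genes with intervals clear of 0 was not computed, so these interval counts describe the 10 genes alone. Summed over the 10 genes the ratio was 0.11 (0.09 to 0.13), and the 10 genes did not move as a block. Fos and Fosb were higher in Reln-high barcodes and Npas4, Nr4a1 and Junb lower under all alternatives run. At the edge of the Reln cut, the 7 barcodes with 5 to 6 Reln UMIs per 10000 had a summed level of 2136 CPM (1926 to 2364), and the 16 barcodes with 4 to 5 had 1431 (1295 to 1577). No cell class in the matrix is defined by lacking these genes, so the share of barcodes that free RNA alone would give was not measured.

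The Reln-high barcodes were not uniform. When the barcodes were divided into 12 clusters without using the 10 genes or the gene lists below, a division looked at after the first results, 253 of the 472 Reln-high barcodes (53.6%) fell in a cluster led by Ndnf, 112 (23.7%) in a cluster led by Cdkn1a and 52 in a cluster led by Cebpa. The first 2 had 8 of the 9 CR markers at least 2-fold above all other barcodes and the Cebpa-led cluster had 6, without Calb2, Nhlh2 and Cdkn1a. Of 4 intermediate progenitor markers, the Cdkn1a-led cluster also had 3 (Eomes, Neurog2 and Btbd17), the Ndnf-led 1 (Btbd17) and the Cebpa-led 0. Of 7 radial glia markers they had 2 (Pax6 and Vim), 1 (Pax6) and 0, in the same order. The summed count of the 10 genes per thinned barcode ran from 0 to 75 with a median of 14 in the Ndnf-led cluster, from 1 to 79 with a median of 8 in the Cdkn1a-led cluster, and from 6 to 134 with a median of 45 in the Cebpa-led cluster. The ranges overlapped, but the middle of the Cebpa-led barcodes lay far above the others.

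In Reln-high barcodes of the Cebpa-led cluster Jun reached 1168 CPM (1102 to 1237), against 275 (263 to 287) in the Ndnf-led and 126 (111 to 143) in the Cdkn1a-led cluster. Junb had 573, 175 and 88.7 CPM in the same order, and Fos had 1496, 778 and 554. Of the 8 genes with enough UMIs to compare, all but Arc and Atf3, the intervals of all 8 were above 0 for the Cebpa-led over the Ndnf-led cluster, and 5 were at least 2-fold higher (Fosb, Jun, Junb, Egr1 and Npas4), beside 5.32% of 7553 genes in either direction. The 8 genes had a median log2 ratio of 1.24, against -0.07 for all genes tested. The share of all genes with intervals above 0 was not computed. The largest log2 ratio was 2.09 for Jun (1.98 to 2.19) and the smallest 0.76 for Nr4a1 (0.40 to 1.10).

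The Cdkn1a-led barcodes had the opposite position. Their Nr4a1 level was 8.39 CPM (4.80 to 13.6) against 49.3 (44.3 to 54.6) in the Ndnf-led cluster, a log2 ratio of -2.55 (-3.38 to -1.83), and Npas4 had 14.2 (9.34 to 20.6) against 51.7 (46.6 to 57.2), a log2 ratio of -1.87 (-2.49 to -1.30). Fosb, Jun and Egr1 were also at least 2-fold lower, which makes 5 of 8 beside 4.16% of 7859 genes. Fos was lower by a smaller margin, with a log2 ratio of -0.49 (-0.59 to -0.40), and Ier2, at 122 against 108 CPM, did not differ by more than counting error. Arc had 0 UMIs there, which allows up to 1.94 CPM by the exact interval. The dual-specificity phosphatase gene Dusp1, itself an early gene, had 325 CPM in the Cdkn1a-led and 302 in the Ndnf-led cluster, and the AP-1 gene Jund 928 and 912, so these did not share the low levels.

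Depth differed between these clusters. The Reln-high barcodes had a median of 25828 UMIs in the Ndnf-led, 16452 in the Cdkn1a-led and 15690 in the Cebpa-led cluster, and mitochondrial shares of 2.57, 2.60 and 2.44%. The part of depth in the difference between clusters was not tested. Leaving out the Cebpa-led cluster moved the Reln-high over other neurons log2 ratio of Jun from 0.08 to -0.26, of Junb to -0.41, of Npas4 to -0.85 and of Fos to 0.25.

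**Figure D1:**
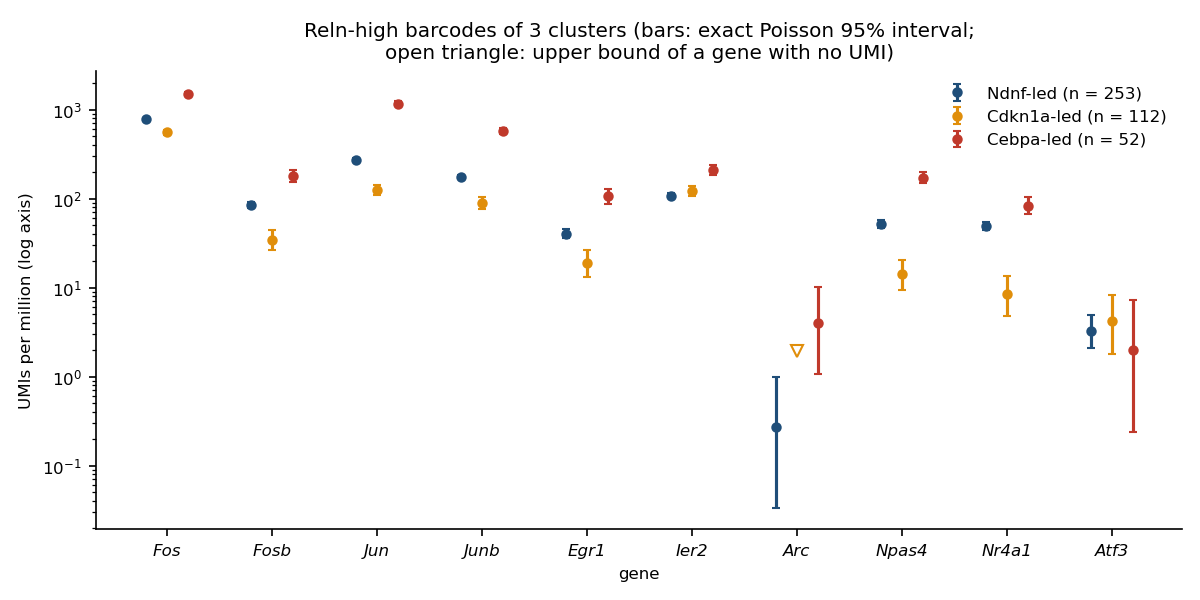
Levels of the 10 genes in UMIs per 1000000 (vertical log axis) in Reln-high barcodes of the Ndnf-led (253), Cdkn1a-led (112) and Cebpa-led (52) clusters, with exact Poisson 95% intervals. The Cebpa-led points are the highest for every gene but Atf3, while Npas4 and Nr4a1 are lowest in the Cdkn1a-led barcodes, at 14.2 and 8.39.

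Among all kept barcodes, 8 clusters made in the same way gave the distribution over cell classes. A CR-like cluster led by Reln (400 barcodes, 394 of them Reln-high) had 9 of 9 CR markers at least 2-fold higher. Names were also given to deep-layer-like clusters led by Fezf2 (771, 4 of 8 markers) and Akap7 (642, 3 of 8). An upper-layer-like cluster was led by Rnd2 (354, 4 of 6) and a subplate-like cluster by Caln1 (330, 3 of 7). These names are loose where few markers were higher. The subplate markers summed to 338 CPM in the Caln1-led cluster and to 506 in the CR-like cluster. The Neurod1-led (243) and Snhg11-led (172) clusters were left unnamed. In the Snhg11-led cluster 3 of 6 interneuron markers (Gad1, Dlx5 and Lhx6) were at least 2-fold higher, none of them among its 10 leading genes, and the 6 markers summed to 25.1 CPM, against 1.29 to 4.17 in the other neuronal clusters. The summed level of the 10 genes was lowest in the Rnd2-led cluster, at 949 CPM (923 to 975), and highest in the Snhg11-led cluster, at 2209 (2159 to 2261), with the CR-like cluster in between at 1581 (1557 to 1606). This order is that of pooled UMIs and did not hold at its ends for the median barcode. The median summed count at equal depth was 16 in the Snhg11-led and 17 in the Fezf2-led cluster. It was 8 in the Rnd2-led and 7 in the Caln1-led cluster.

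The genes did not share 1 order over the clusters. Ier2 varied least, from 108 to 154 CPM, a 1.42-fold range, and Fos 2.08-fold, from 398 in the Caln1-led to 826 in the Snhg11-led cluster. Fos levels of the CR-like, Fezf2-led, Neurod1-led and Snhg11-led clusters lay close together, and 4 of the 6 pairs of neighbours in its order had overlapping intervals. Nr4a1 was highest in the 2 deep-layer-like clusters, at 135 CPM in the Fezf2-led (129 to 142) and 113 in the Akap7-led cluster (107 to 120), and it lay between 32.6 and 54.8 in all other neuronal clusters. Npas4 was high in the same clusters, at 109 and 121 CPM, but also in the Snhg11-led cluster at 132 (119 to 145), and the CR-like cluster had 50.8 (46.5 to 55.4). At equal depth Npas4 was seen in 50.6% of Snhg11-led barcodes, against 57.1% in the Fezf2-led and 59.8% in the Akap7-led cluster. Junb ran from 62.5 CPM in the Rnd2-led to 324 in the Akap7-led cluster, a 5.18-fold range.

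Egr1 spanned 10.6-fold, from 9.97 CPM in the Rnd2-led cluster (7.53 to 12.95) to 106 in the Snhg11-led cluster (94.7 to 117), with 39.6 in the CR-like cluster. Arc was concentrated most. At full depth the Snhg11-led cluster held 73 of its 149 UMIs (49.0%) in 19 of 172 barcodes. At equal depth Arc was seen in 7.56% of these barcodes (4.09 to 12.6%). The Arc level there was 22.3 CPM (17.5 to 28.1), against 0.50 (0.16 to 1.17) in the CR-like cluster. Of the 32 Reln-high barcodes in the Snhg11-led cluster, 1 held an Arc UMI. With 12 clusters in place of 8, the highest summed level was 4.39 times the lowest, against 2.33 times with 8. The highest level was 3941 CPM with 12 clusters and 2209 with 8, and the lowest 899 and 949. The Reln-high barcodes of the Cebpa-led cluster had a summed level of 3996 CPM.

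**Figure D2:**
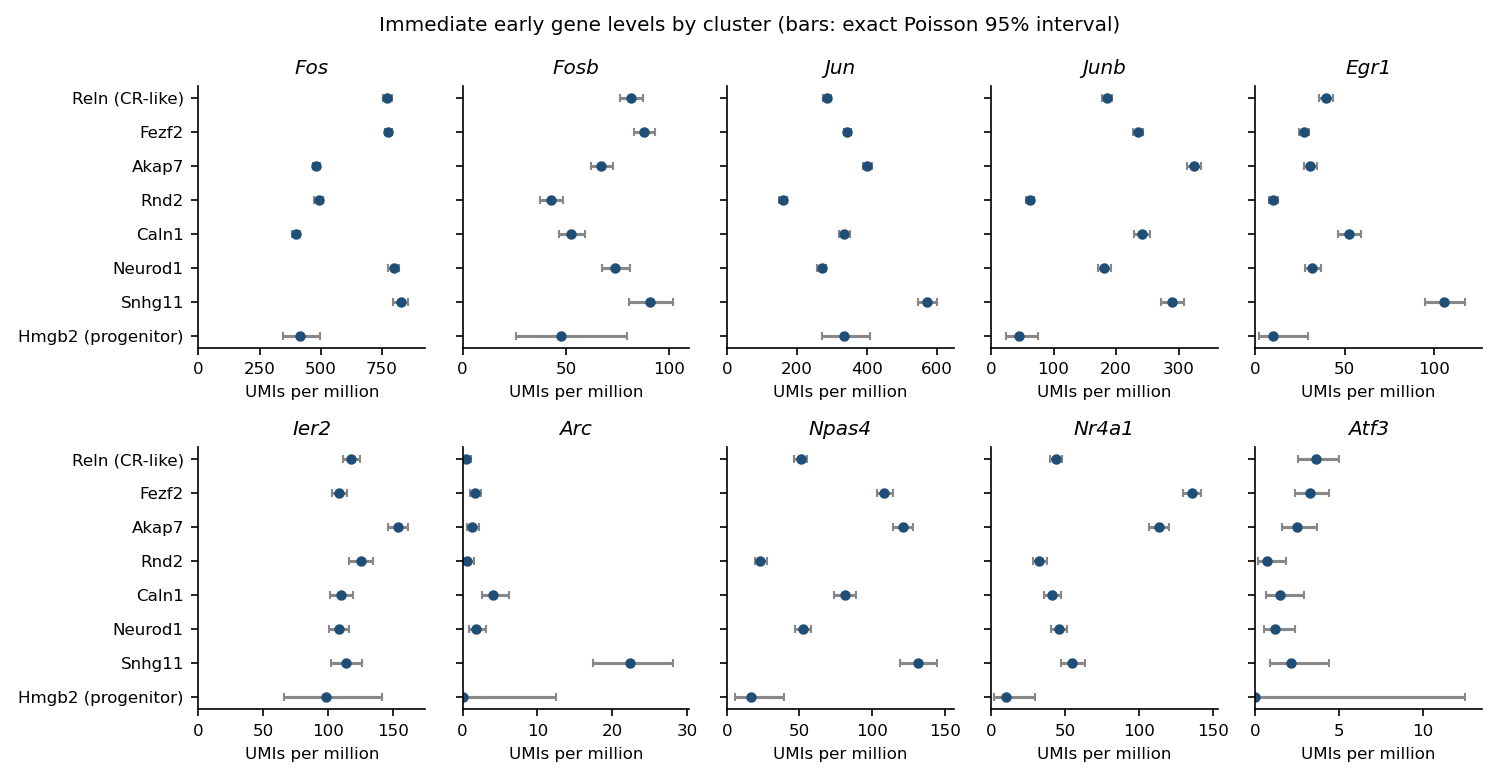
Levels of each gene in UMIs per 1000000 (horizontal axes, each with its own scale from 0) in the 8 clusters, named by their leading gene, with exact Poisson 95% intervals. Nr4a1 is highest in the Fezf2-led and Akap7-led clusters, Arc and Egr1 in the Snhg11-led cluster, and the Rnd2-led cluster is the lowest of the 7 clusters other than the progenitor-like one for 7 of the 10 genes.

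The counts were unevenly spread over barcodes. The Fano factor, the variance over the mean of the thinned counts, is 1 for a gene spread by sampling alone. It was at least 1.5 for 9 of the 10 genes in Reln-high barcodes, beside 4.52% of 9452 genes detected in at least 5% of barcodes, and for 9 of 10 in other neurons, beside 6.27%. Arc and Atf3 fall below this 5%, and the 9452 genes were not matched to the 10 by mean count. Cluster means were not taken away here, so differences between cell classes enter. Jun had the widest spread in Reln-high barcodes, at 10.5 against 5.83 in other neurons, and Junb followed at 7.04 and 4.38, while Fos was alike in both at 5.87 and 5.98. The exceptions were Arc in Reln-high barcodes (0.996) and Atf3 in other neurons (1.33), both genes of few UMIs. Npas4 was lower in Reln-high barcodes yet more unevenly spread there, at 3.34 against 2.18. At full depth, the 10% of barcodes with the most Junb UMIs held 42.6% of the Junb UMIs of the Reln-high group. In the other neurons they held 40.5%. Differences in depth between barcodes enter these shares.

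**Figure D3:**
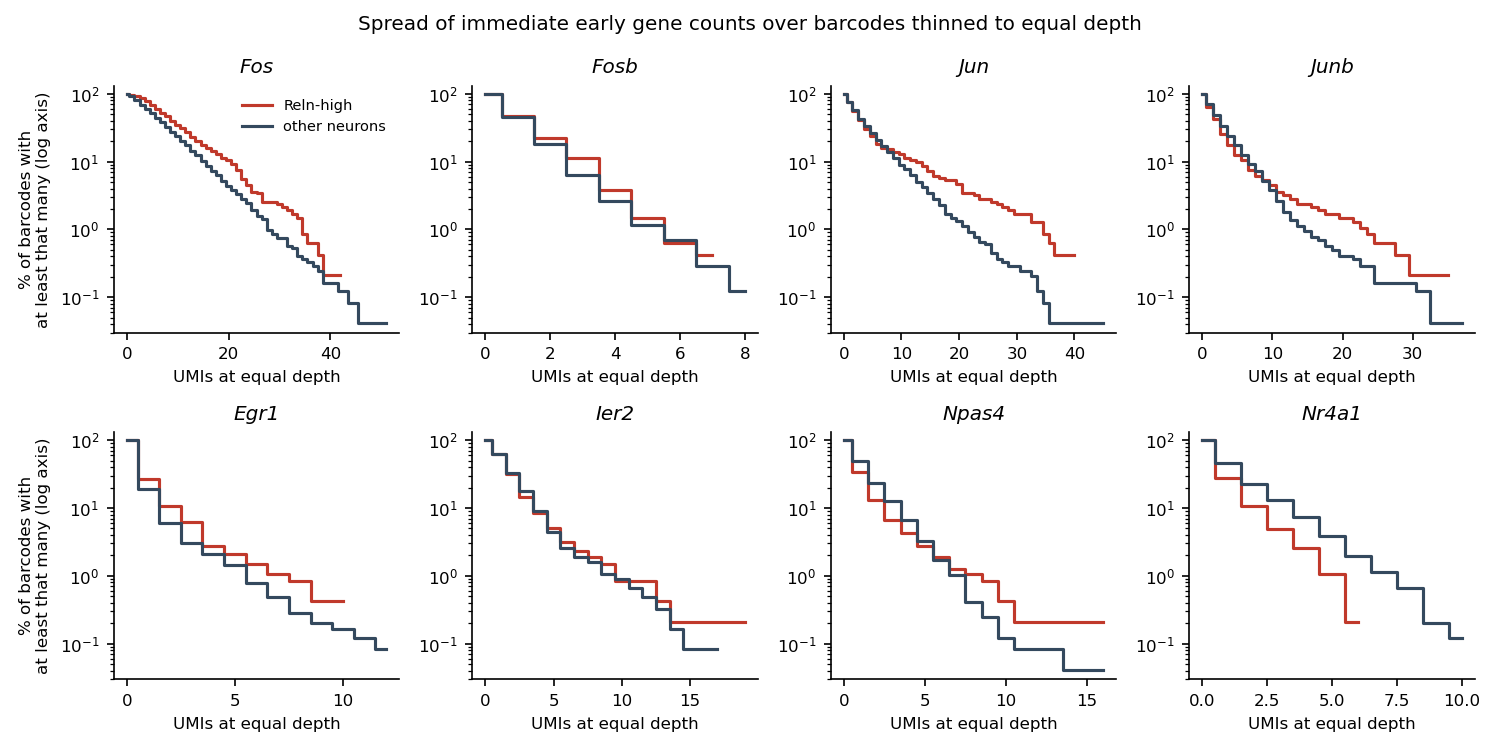
Share of barcodes (vertical log axis, percent) with at least the number of UMIs on the horizontal axis, at equal depth, for the 8 genes other than Arc and Atf3, in Reln-high barcodes (red) and other neurons (dark). The Jun and Junb curves of Reln-high barcodes lie below those of other neurons at low counts (64.6% against 69.5% with at least 1 Junb UMI) and above them at high counts, from 8 UMIs for Jun and 9 for Junb, while the Nr4a1 curve of Reln-high barcodes stays below that of other neurons.

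Most barcodes carried transcripts of several of the genes at a time. At equal depth the median barcode had 5 of the 10 genes detected, 4 in Reln-high barcodes and 5 in other neurons, and 85.2% had at least 3 (83.8 to 86.4%). Only 16 of 2913 barcodes (0.55%, 0.31 to 0.89%) had none. The summed count had a median of 13 UMIs in both groups, 0.12% of the thinned UMIs, with a range of 0 to 134 in Reln-high barcodes and 0 to 132 in other neurons.

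Co-variation was measured as the Pearson correlation r of log counts over barcodes at equal depth, after the mean of each of the 8 clusters was taken away. All points come from the same library, and r is given as a description. Of 45 pairs of the genes, 33 had r of at least 0.1 over the 2913 barcodes and all 45 were above 0, with a median of 0.22. All 28 pairs without Arc and Atf3 reached 0.1, from 0.15 for Ier2 with Nr4a1 to 0.49 for Fos with Jun. With Fos, 8 of the 9 other genes reached r of 0.1, beside 0.497% of 9452 genes. The r values with Fos were 0.49 for Jun, 0.48 for Junb, 0.40 for Npas4, 0.38 for Fosb, 0.37 for Nr4a1, 0.32 for Egr1 and 0.24 for Ier2. Arc at 0.10 and Atf3 at 0.09 were weak, and with transcripts in fewer than 2% of thinned barcodes these counts are too sparse for more to be read from them.

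The other genes gave like counts. At least 0.1 was reached with 8 of the 9 others by Jun (0.444% of 9452 genes), Junb (0.561%), Npas4 (0.339%) and Egr1 (0.18%), with 7 by Nr4a1 (0.466%), Fosb (0.222%) and Ier2 (0.212%), with 5 by Arc (0.0212%) and with 0 by Atf3 (0%).

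The pattern was seen in both groups. In Reln-high barcodes 32 of 45 pairs reached 0.1, and the 28 pairs without Arc and Atf3 had a median of 0.37. In other neurons 35 pairs reached it, and the same 28 pairs had a median of 0.30. Within the Ndnf-led cluster alone, the median of those pairs was 0.30 over 253 Reln-high barcodes and 27 of 28 reached 0.1. It was 0.17 over the 112 Cdkn1a-led barcodes, with 19 of 28, and 0.44 over the 52 Cebpa-led barcodes, with 26 of 28. Over the 23 Reln-high barcodes of a cluster led by Crabp1, the median was -0.02, the lowest pair -0.45 and 13 of 28 reached 0.1. The share of all genes reaching 0.1 was taken only over the 2913 barcodes together. It was not computed within these groups and clusters, where r varies more because barcodes are fewer. Fos with Nr4a1 had r of 0.28 in Reln-high barcodes and 0.39 in other neurons, and Fosb with Egr1 had 0.42 and 0.27. These differences were not tested.

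**Figure D4:**
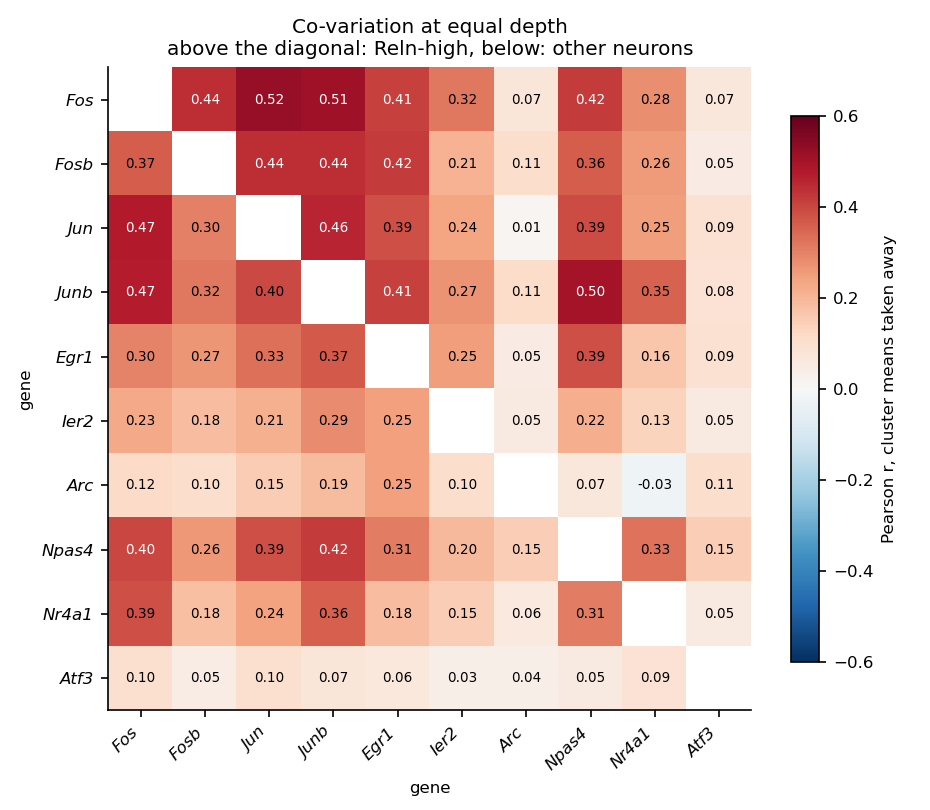
Pearson r of log counts at equal depth, with cluster means taken away, for each pair of genes in the 472 Reln-high barcodes (above the diagonal) and the 2441 other neurons (below it). All pairs among Fos, Fosb, Jun, Junb, Egr1, Ier2, Npas4 and Nr4a1 are at or above 0.13 in Reln-high barcodes and 0.15 in other neurons, and the pale rows are Arc and Atf3.

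Counts were also set beside each other without taking cluster means away, so differences between cell classes enter the values of this paragraph. Reln-high barcodes made up 15 of the 199 barcodes with no Fos UMI and 147 of the 644 with 11 to 51. In the 199 barcodes with no Fos UMI, the mean Jun count per thinned barcode was 1.40 (1.24 to 1.58), and it was 1.67, 2.47 and 3.70 in barcodes with 1 to 2, 3 to 5 and 6 to 10 Fos UMIs. In the 644 barcodes with 11 to 51 Fos UMIs it was 7.35 (7.15 to 7.57). Junb went from 0.73 (0.62 to 0.86) to 4.61 (4.45 to 4.78) between the same ends, Egr1 from 0.08 (0.04 to 0.12) to 0.93 (0.86 to 1.01), and Nr4a1 from 0.24 (0.17 to 0.31) to 1.68 (1.58 to 1.78). Ier2 had the flattest course, from 0.72 (0.61 to 0.85) to 2.05 (1.94 to 2.16). Jun was thus still detected in 58.8% of barcodes without Fos (51.6 to 65.7%), and Junb in 43.2% (36.2 to 50.4%). Over all 45 pairs, a gene was seen in a larger share of barcodes with its partner than without it, and the intervals were apart in 37. Such shares were not computed for pairs of other genes. For Npas4 and Nr4a1, 57.9% of barcodes with Npas4 also held Nr4a1 (55.2 to 60.5%), against 29.7% of those without (27.5 to 32.0%).

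Depth and mitochondrial share were set beside the sum and beside single genes. The summed log level had r of 0.03 with the total UMIs, -0.02 with the number of genes and -0.05 with the mitochondrial share over both groups. Over the 472 Reln-high barcodes r with the mitochondrial share was -0.20. In 5 bins of equal size by total UMIs the mean summed count stayed between 16.2 and 18.6 UMIs, and in 5 bins by mitochondrial share between 16.3 and 18.2. Single genes moved within this sum. From the shallowest to the deepest bin the mean Fos count went from 5.98 (5.79 to 6.18) to 7.40 (7.18 to 7.63), while Junb went from 2.64 (2.51 to 2.78) to 2.19 (2.07 to 2.31) and Npas4 from 0.99 (0.91 to 1.077) to 0.75 (0.69 to 0.83). The share of Reln-high barcodes in these bins was 8.23% and 39.5%. From the lowest to the highest mitochondrial bin Fos went from 7.53 (7.31 to 7.76) to 6.03 (5.83 to 6.23) and Junb from 2.14 (2.03 to 2.27) to 2.79 (2.65 to 2.93), with Reln-high shares of 31.0% and 8.06%. The part of depth, mitochondrial share and cell class in these differences was not tested. Markers of other cell types were also counted. Of 2913 barcodes, 12 had at least 3 UMIs of the 6 interneuron markers, 2 of the 8 microglia markers, 0 of the 6 endothelial markers and 1 of the 6 mural and fibroblast markers, where Col3a1 was at 0. At least 3 UMIs were more frequent for the 7 radial glia markers (749 barcodes), the 4 intermediate progenitor markers (212) and the 5 erythroid markers (82), while 2 barcodes had them for the 5 cycling cell markers. Correlations of these 8 lists with the summed log level lay between -0.048, for radial glia, and 0.045, for interneurons, and their part in the results was not tested.

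Outside the 10 genes, those most like Fos over barcodes were other early genes. Jund, an AP-1 subunit, had r of 0.46, Dusp1, a phosphatase that switches off MAP kinases, 0.43, the zinc finger factor Klf4 0.38, the antiproliferative gene Btg2 0.31 and Klf6 0.27. Then came Dusp6 (0.23), Rem2 (0.23), Cyr61 (0.23), Pnrc1 (0.22) and Vgf (0.20), of which Rem2, a small GTPase of neurons, and Pnrc1 were in no list. The summed log level gave nearly the same genes, with 0.54 for Jund, 0.50 for Dusp1, 0.41 for Klf4 and 0.40 for Btg2, and it added Pak6 (0.26). Dusp6, which acts on ERK, had r with the summed level of 0.10 in Reln-high barcodes and 0.34 in other neurons, and its level was lower in Reln-high barcodes (log2 ratio of -1.65, -1.79 to -1.52). Klf4 differed little in level (log2 ratio of -0.18, -0.30 to -0.07) and had r of 0.52 and 0.38 with the summed level.

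**Figure D5:**
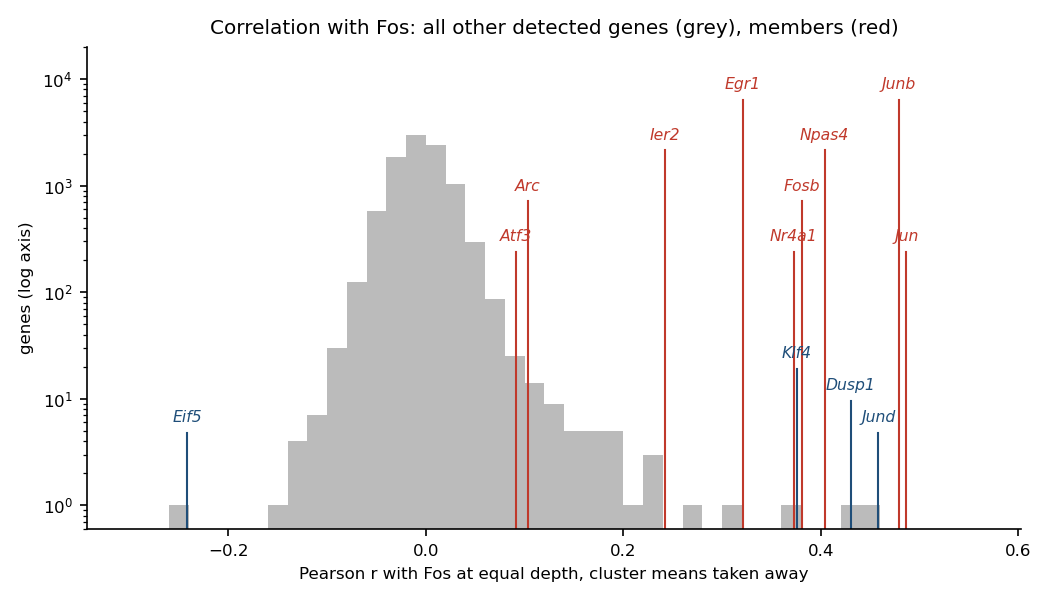
Number of genes (vertical log axis) by their Pearson r with Fos at equal depth, cluster means taken away, for 9452 genes detected in at least 5% of barcodes (grey), with the 9 other immediate early genes in red and named non-members in blue. The grey genes centre on -0.01, and 7 of the 9 red lines lie at 0.24 or above.

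Among 33 further immediate early and AP-1 genes, 25 were detected in at least 5% of thinned barcodes and 15 of these had r of at least 0.1 with the summed level, beside 0.793% of 9452 genes. Between the groups, 27 had at least 100 UMIs, 3 were at least 2-fold higher in Reln-high barcodes and 3 at least 2-fold lower, beside 7.5% and 5.42% of all 11247 genes, and the median log2 ratio was -0.17 against 0.12 for all genes. The higher genes were Klf2 (80.8 against 27.4 CPM), Ier3 (6.76 against 2.75) and Csrnp1 (10.7 against 4.98), and the lower ones Nr4a2 (23.0 against 86.9), Dusp6 (42.6 against 133.9) and Cyr61 (12.9 against 37.3). Nr4a2 and Nr4a3, the relatives of Nr4a1, were both lower in Reln-high barcodes, Nr4a3 at 22.8 against 43.6 CPM. The relatives of Egr1 were scarce, at 0.33 and 0.55 CPM for Egr2 and 0.66 and 0.90 for Egr4, and Egr3 had 0 UMIs in Reln-high barcodes and 0.17 CPM in the others.

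Of 17 activity-regulated neuronal genes, 12 had at least 100 UMIs, of which 1 was at least 2-fold higher and 2 at least 2-fold lower (7.5% and 5.42% of all genes), with a median log2 ratio of 0.19. Of the 11 detected in at least 5% of barcodes, 3 reached r of 0.1 with the summed level, beside 0.793% of 9452 genes. Scg2, a granule protein gene, was the higher one (50.1 against 20.3 CPM), followed by Vgf (66.1 against 36.7) and Crem (11.4 against 7.81). Plk2, a kinase of synaptic scaling, had 177 against 544 CPM, and Homer1, a postsynaptic scaffold gene, 25.7 against 54.9, while Nptx1 (5.11 against 6.07) did not differ beyond counting error.

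Of 18 heat shock and stress genes, 14 were detected in at least 5% of thinned barcodes. Among these 14, 1 (Atf4, r of 0.12) reached 0.1 with the summed level, beside 0.793% of 9452 genes. Their median r was 0.00, against 0.14 for the 25 further immediate early and AP-1 genes detected in as many barcodes. Hspa1a (1.20% of barcodes), Hspa1b (0.34%), Hspb1 (0.17%) and Hmox1 (2.20%) were too rare to enter. Of 15 with at least 100 UMIs, 2 were at least 2-fold higher in Reln-high barcodes and 0 lower (7.5% and 5.42% of all genes), with a median log2 ratio of 0.00. These were Hmox1, the haem oxygenase gene (7.18 against 1.12 CPM), and Hspa5, the chaperone of the endoplasmic reticulum (340 against 145). The lowest ratios were those of Txnip (3.88 against 5.81), Ddit4 (80.7 against 97.7) and Hspe1 (357 against 405).

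Of the 15 genes of upstream regulators, 14 had at least 100 UMIs. None of the 14 reached r of 0.1 with the summed level, beside 0.793% of 9452 genes, and the highest r was 0.06 for Srf. By level, 0 were at least 2-fold higher in Reln-high barcodes and 2 at least 2-fold lower (7.5% and 5.42% of all genes), with a median log2 ratio of -0.10. Mef2c, a calcium-responsive factor of cortical projection neurons, had 155 against 635 CPM, and Camk4, the kinase that phosphorylates CREB, 15.1 against 32.8. Srf itself was at 12.9 against 18.4 CPM, a log2 ratio of -0.51 (-0.77 to -0.27). Creb1 (17.6 against 14.7), Mef2a (33.4 against 22.6) and Mkl1 (8.74 against 6.24) were the highest of the list.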

How the data were processed

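Ebf2-EGFP+ cortical cells at E15.5 were measured in 1 droplet library. The deposited values were raw UMI counts, 1 for each pair of gene and barcode. Per the submitters' processing notes, the authors used Cell Ranger 2.0.0, the mm10 build and Seurat 2.0. Clusters were made anew without the authors' cell annotation, and their names can differ from the study's.

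All barcodes passed a minimum of 1000 genes and a maximum mitochondrial share of 10%, and the top 2.3% by Scrublet score were taken out as likely doublets, because the automatic threshold called only 2. K-means gave 8 clusters from 20 components of the 2000 most variable genes, without the 10 genes, the lists and Reln. A marker counted with at least 10 UMIs and a 2-fold higher level. Of 27998 identifiers, 27722 were found in GENCODE M21. Intervals were exact Poisson for CPM, Clopper-Pearson for shares and conditional binomial for ratios. With 1 library and barcodes that are not replicates, no p-value was computed. The tools were Python 3.11.15, scipy 1.17.1, scikit-learn 1.9.0 and scanpy 1.11.5.

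The genes, lists and rules were chosen with earlier results of these data known. Named genes were the 10 genes, the 10 most correlated with Fos (the gene of most UMIs) and with the summed log level, and the 3 highest and 3 lowest ratios of each list, of which 1 gene is not reported here. Genes named from the lists besides these were chosen after their values were seen, as was the division of Reln-high barcodes by 12 clusters. On simulated counts, 99.5% of 200 changed genes were recovered among 11182 genes for the comparison of Reln-high with other neurons. In the co-variation step, run on 6059 genes with simulated counts, 100% of genes sharing a factor and 0% of the others reached r of 0.1, whereas without thinning 93.2% of the others did. Alternatives covered filters, doublets, depth, the Reln cut, clusters, thinning and the measure of correlation.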

Additional observations from a re-analysis of the deposited data

How the results depend on the processing

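No paired analysis was possible because the 8 labelled samples share 1 matrix with no map from barcodes to samples, and for the same reason no replicate could be left out. The summed level of the 10 genes, 1607 CPM, was 1586 without the 5 barcodes richest in each gene, 1635 in barcodes with Xist and no Y-linked UMIs, 1496 in barcodes with Y-linked and no Xist UMIs and 1554 without the Cebpa-led cluster. The last 3 were added after seeing the data. The count of genes at least 2-fold different, 1, became 2 without barcodes above 25000 UMIs, without barcodes holding Xist and Y-linked UMIs, as a mean of each barcode's own CPM, in each of the 2 sex-linked subsets and without the Cebpa-led cluster. The range of summed levels over clusters, 2.33-fold, was 4.39-fold with 12 clusters.

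The log2 ratio changed sign for Jun, to -0.036 at a cut of 10 Reln UMIs per 10000, to -0.24 with the CR-like cluster and to -0.26 without the Cebpa-led cluster, and for Egr1, to -0.46 in the Y-linked subset. Of the 139 single-gene ratios under alternatives, 105 moved by less than counting error. The cause was not tested. Pairs with r of at least 0.1 numbered 22 (detection in place of counts) to 40 (full depth), against 33. With genes of at least 20 UMIs, 17.3% of 13568 genes were at least 2-fold different. Arc and Atf3, with 149 and 132 UMIs, are limited by depth.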

Other observations

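The lowest correlation with the early genes belonged to Eif5, a translation initiation factor gene detected in 83.5% of thinned barcodes. Its r was -0.24 with Fos and -0.30 with the summed log level (-0.21 in Reln-high barcodes and -0.33 in other neurons), while its level did not differ between the groups beyond counting error (log2 ratio of 0.03, -0.03 to 0.09). The next lowest with Fos were Caln1, at -0.16, and Nfe2l3, at -0.13, and with the summed level Caln1, at -0.15, and Grm3, at -0.14. Eif5 thus stood apart from the 9452 genes at the low end, as Jund and Dusp1 did at the high end.

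Barcodes with Xist and barcodes with Y-linked UMIs were both present. The mean summed count was 17.6 UMIs (17.4 to 17.8) in 1357 barcodes with Xist and no Y-linked UMIs and 16.4 (16.1 to 16.7) in 646 barcodes with Y-linked and no Xist UMIs. The median r over the 45 pairs was 0.23 and 0.21, and 36 pairs reached 0.1 in each.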
